A study of Mus musculus with 9 samples.

Results

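Carboxylesterases are serine hydrolases that split ester bonds in drugs, toxins and lipids, and mouse liver expresses many of them. The genes described here are Ces1b, Ces1c, Ces1d, Ces1e, Ces1f, Ces1g, Ces2a, Ces2e, Ces3a and Ces3b, chosen by their gene names among the non-control probes of an Agilent mouse array, 10 of the 37074 gene names on it. Liver RNA was measured on 9 one-colour arrays, 3 for each of 3 groups. AAV-V mice carried an empty adeno-associated virus on a regular diet, AAV-GP73 mice carried the virus encoding GP73, a Golgi protein, on the same diet, and AAV-V HFD mice carried the empty virus and were fed a high-fat diet (HFD). The mice were C57BL/6N males injected through the tail vein, and the virus was directed to hepatocytes, so that all 3 groups share the injection and the vector. All samples are labelled with an age of 12 months, a time that the study's text counts from the injection, and that text is not uniform on how long the HFD lasted. The sources used here do not tell if mice were pooled, and p-values below measure only the spread between these samples. The probe of Golm1, which encodes GP73, was not well above background on all arrays of any group. Golm1 was therefore not tested, and its overexpression was not read from these arrays. The study reports GP73 expression from this virus, mainly in the liver, at an earlier time than these samples.

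Most Ces1 proteins stay in the lumen of the endoplasmic reticulum. There Ces1d, also called triacylglycerol hydrolase, releases fatty acids from stored triglycerides, which hepatocytes use for very-low-density lipoproteins (VLDLs). Ces1f is a close relative of Ces1d with lipase activity. Ces1g is an esterase tied to hepatic lipid handling, and Ces1e, or egasyn, holds beta-glucuronidase in the endoplasmic reticulum. Ces1c is secreted and is the main esterase of mouse plasma. Ces2 enzymes prefer esters with a large alcohol part and a small acyl part, and Ces2a also acts on acylglycerols. Ces3a and Ces3b are liver esterases related to both other groups.

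Each gene had 1 probe of 60 bases and 1 spot per array. The probes fall into 2 clusters on chromosome 8 of mm9, the build of the scanner files. Those of the 6 Ces1 genes lie on the minus strand within chr8:95581314-95826781, and those of the 4 Ces2 and Ces3 genes lie on the plus strand within chr8:107263207-107615543, 11.4 Mb away. The probes of Ces1b and Ces1c match intervals longer than themselves, of 2934 and 3452 bases, and so cross an exon junction, and the other 8 match a single stretch of 60 bases. No annotation of mm9 was used here, and the exon or untranslated region of a probe is not given. The 5 sequences below are shown because the results turn on these probes, and the first pair shows how alike neighbouring genes are at a probe. Each is written 5′ to 3′, and capitals mark the bases that differ between the Ces1b and Ces1c probes where they overlap.
Ces1b (chr8:95581314-95584247): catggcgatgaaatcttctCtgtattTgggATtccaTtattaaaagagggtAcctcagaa
Ces1c (chr8:95624607-95628058): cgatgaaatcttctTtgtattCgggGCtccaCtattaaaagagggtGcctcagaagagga
Ces1d (chr8:95698949-95699008): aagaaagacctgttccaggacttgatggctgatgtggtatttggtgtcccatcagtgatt
Ces2a (chr8:107263207-107263266): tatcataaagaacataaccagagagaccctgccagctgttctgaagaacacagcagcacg
Ces3b (chr8:107615484-107615543): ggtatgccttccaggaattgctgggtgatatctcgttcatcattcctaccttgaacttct
The Ces1b and Ces1c probes share 49 of the 55 bases in which they overlap, with a longest identical run of 14. The Ces3a probe lists transcripts of both Ces3a and Ces3b, so that its signal cannot be assigned to Ces3a alone. The other 9 probes list named transcripts of 1 carboxylesterase each.

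Signal was compared as the log2 processed signal after each array was shifted to the same 75th percentile over the 2666 probes that were well above background on all 9 arrays, a flag of the scanner software. These probes had a median processed signal between 33.1 and 38.7 on the AAV-V arrays, between 104 and 129 in AAV-GP73 and between 76.4 and 124 in AAV-V HFD before the shift, and the log2 mean of 228 spike-in control spots lay between 10.52 and 11.05, 10.56 and 10.63, and 10.63 and 11.01. Between 10.2% and 18.4% of the spots of an array were well above background. Slide 1 held AAV-V and AAV-GP73 in separate columns, and all HFD arrays were on slide 2, and the diet cannot be told apart from the slide. Of 8 hepatocyte markers, 7 (Alb, Ttr, Apoa1, Apob, Tat, Serpina1a and Fgb) were well above background on all 9 arrays. In whole tissue, fewer hepatocytes and less RNA per hepatocyte cannot be told apart. In the fit of limma over 5761 genes, a difference was called when it reached 2-fold with an adjusted p (Benjamini-Hochberg) under 0.05. With 3 arrays against 3, no exact permutation p can fall below 0.1.

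Detection differed between the groups. On the AAV-GP73 arrays 8 of the 10 probes were well above background on all 3 arrays. In AAV-V this held for Ces1c, Ces2e and Ces3a, and in AAV-V HFD for Ces1c, Ces3a and Ces3b. By array, 3 to 5 probes were well above background in AAV-V, 8 on each AAV-GP73 array, and 6, 8 and 3 on AAV-V HFD replicates 1, 2 and 3. Ces1c and Ces3a were detected on all 9 arrays, Ces1g on AAV-V HFD replicate 2 only, and Ces1b on none. The order of the groups in detection follows the order of their overall signal given above, and the part of that signal in detection was not tested. The 8 genes other than Ces1b and Ces1g were tested, and 4 of them (Ces1d, Ces1e, Ces1f and Ces2a) passed the filter only through the AAV-GP73 arrays.

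**Figure D1:**
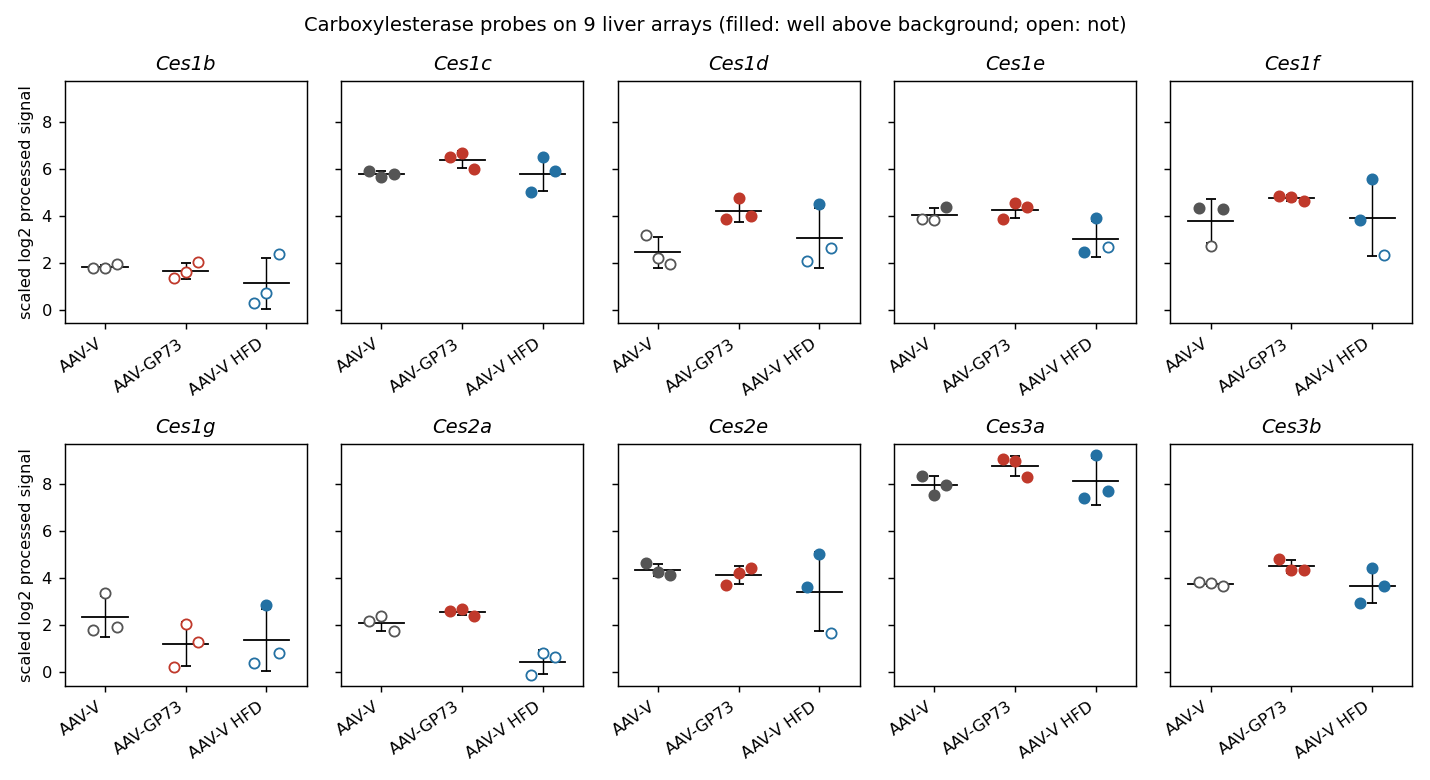
Scaled log2 processed signal of the 10 carboxylesterase probes on each array, with the group mean as a line and the SD as a bar (n = 3). Filled points are well above background and open points are not, and Ces2a is filled in AAV-GP73 only.

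Among the triglyceride hydrolases of the endoplasmic reticulum, Ces1d was detected throughout AAV-GP73 and nowhere in AAV-V. Its scaled log2 signal was 3.87, 4.77 and 4.01 on the AAV-GP73 arrays, 3.17, 2.21 and 1.94 on the AAV-V arrays and 2.07, 4.48 and 2.61 on the AAV-V HFD arrays. The AAV-GP73 arrays all lay above the AAV-V arrays, on none of which the probe was well above background, and AAV-V HFD replicate 2 was the single HFD array with detection. The fitted difference between AAV-GP73 and AAV-V was 1.78 ± 0.56 on the log2 scale (SE, adjusted p = 0.0159, limma), and since the AAV-V level is only a bound, Ces1d was at least 1.28-fold higher in AAV-GP73. A least fold change sets each array of the dimmer group to its lowest signal well above background, or to the probe's own signal if that is higher. The call was lost without AAV-V replicate 3 (adjusted p = 0.0636) and without AAV-GP73 replicate 2 (adjusted p = 0.0666), and after normexp background correction the difference was -0.48 (adjusted p = 0.0609). Ces1d entered the test through the AAV-GP73 arrays alone, the group in which it was then called higher. Against AAV-V HFD the difference of AAV-GP73 was 1.16 ± 0.56 (SE, adjusted p = 0.335, limma), and that of AAV-V HFD against AAV-V was 0.61 ± 0.56 (SE, adjusted p = 0.366, limma).

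Ces1f had a scaled log2 signal of 4.33, 2.70 and 4.29 in AAV-V, of 4.84, 4.81 and 4.63 in AAV-GP73 and of 3.81, 5.57 and 2.32 in AAV-V HFD. The AAV-GP73 arrays lay above those of AAV-V and close together, with an SD of 0.12, while the SD was 0.93 in AAV-V and 1.63 in AAV-V HFD. The difference between AAV-GP73 and AAV-V was 0.99 ± 0.67 (SE, adjusted p = 0.214, limma) and did not pass the test. Ces1g was not tested. Its values lay between 1.80 and 3.37 in AAV-V, 0.23 and 2.08 in AAV-GP73 and 0.40 and 2.87 in AAV-V HFD, with 1 of the 9 well above background, so that no fold change can be given.

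Egasyn, Ces1e, was called lower in AAV-V HFD than in AAV-V under 2 of 7 scalings, the main one included. Its scaled log2 signal was 3.88, 3.82 and 4.38 in AAV-V, 3.84, 4.54 and 4.35 in AAV-GP73 and 2.48, 3.89 and 2.69 in AAV-V HFD. Replicate 2 of AAV-V HFD lay among the AAV-V arrays and the others lay below them. The probe was well above background on 1 of 3 AAV-V arrays and 2 of 3 AAV-V HFD arrays, and its processed signal before scaling was 7.30, 6.56 and 11.4 in AAV-V against 9.41, 22.3 and 6.55 in AAV-V HFD. The difference was -1.01 ± 0.38 (SE, adjusted p = 0.0419, limma), and 2 of 9 fits that left out 1 array kept the call, with the largest loss without AAV-V HFD replicate 1 (difference -0.73, adjusted p = 0.155). With the 75th percentile of all probes the difference was -0.0514, and with spike-in scaling it was 0.33. Between AAV-GP73 and AAV-V, Ces1e differed by 0.22 ± 0.38 (SE, adjusted p = 0.629, limma).

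The plasma esterase Ces1c had a scaled log2 signal of 5.92, 5.66 and 5.79 in AAV-V, of 6.52, 6.67 and 5.998 in AAV-GP73 and of 5.00, 6.49 and 5.90 in AAV-V HFD. The AAV-GP73 arrays lay above those of AAV-V, and those of AAV-V HFD fell on both sides. None of its differences passed the test, at 0.61 ± 0.36 (SE, adjusted p = 0.164, limma) for AAV-GP73 against AAV-V and 0.00819 ± 0.36 (SE, adjusted p = 0.988, limma) for AAV-V HFD against AAV-V. The probe of Ces1b, which differs from that of Ces1c in 6 of the 55 shared positions shown above, was detected on none of the arrays. Its scaled log2 signal lay between 0.27 and 2.37.

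Ces2a was detected on the AAV-GP73 arrays alone. Its scaled log2 signal was 2.60, 2.71 and 2.41 in AAV-GP73, with detection on all 3 arrays, and -0.12, 0.83 and 0.66 in AAV-V HFD and 2.19, 2.39 and 1.74 in AAV-V, with detection on none of these 6 arrays. The fitted difference of AAV-GP73 against AAV-V HFD was 2.12 ± 0.31 (SE, adjusted p = 0.00642, limma), and the level in AAV-V HFD being a bound, Ces2a was at least 1.13-fold higher in AAV-GP73. Ces2a entered the test only through the AAV-GP73 arrays, the group in which it was then called higher. The call held in each of the 9 fits that left out 1 array, with adjusted p between 0.00834 and 0.0456. Before scaling, the processed signal was 8.08, 8.92 and 9.05 in AAV-GP73, against 1.56, 2.67 and 1.61 in AAV-V HFD and 2.27, 2.44 and 1.83 in AAV-V. The difference between AAV-GP73 and AAV-V was 0.47 ± 0.31 (SE, adjusted p = 0.206, limma), and it was called higher under 4 of 7 scalings, at 1.46 with the 75th percentile of all probes, 1.35 after quantile normalization, 2.15 with spike-ins and 1.55 with the authors' log2 values. Between AAV-V HFD and AAV-V the fit also made a call (adjusted p = 0.00155, limma), but with neither group above background no fold change is given.

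Ces2e, the other enzyme of its group, had a scaled log2 signal of 4.64, 4.26 and 4.15 in AAV-V, of 3.72, 4.24 and 4.46 in AAV-GP73 and of 3.62, 5.02 and 1.67 in AAV-V HFD. The AAV-GP73 and AAV-V arrays overlapped, and the AAV-V HFD arrays spread over both sides of them with an SD of 1.69. The differences were -0.21 ± 0.63 (SE, adjusted p = 0.785, limma) for AAV-GP73 against AAV-V and -0.91 ± 0.63 (SE, adjusted p = 0.237, limma) for AAV-V HFD against AAV-V. Without AAV-V HFD replicate 2 the latter passed the test, at -1.70 (adjusted p = 0.0219).

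The probe named for Ces3a, which may also read Ces3b, had a scaled log2 signal of 8.35, 7.56 and 7.98 in AAV-V, of 9.07, 9.004 and 8.31 in AAV-GP73 and of 7.41, 9.27 and 7.74 in AAV-V HFD. The groups overlapped, and the difference of AAV-GP73 from AAV-V was 0.83 ± 0.45 (SE, adjusted p = 0.124, limma). The probe that lists Ces3b transcripts alone gave 3.83, 3.80 and 3.68 in AAV-V, 4.85, 4.38 and 4.34 in AAV-GP73 and 2.95, 4.47 and 3.66 in AAV-V HFD. It was well above background on all AAV-GP73 and AAV-V HFD arrays and on no AAV-V array. The least fold change of AAV-GP73 over AAV-V that this allows was 1.56, and the fitted difference was 0.75 ± 0.36 (SE, adjusted p = 0.085, limma). For AAV-V HFD against AAV-V the fitted difference was -0.08 ± 0.36 (SE, adjusted p = 0.868, limma), with processed signals before scaling of 13.1, 33.2 and 12.9 against 7.06, 6.48 and 7.02.

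In all, 1 of the 8 carboxylesterases tested was called higher in AAV-GP73 than in AAV-V, where 33.2% of all genes tested were. In AAV-V HFD against AAV-V, 2 were called lower (Ces1e and Ces2a), with 18.2% of all genes. In AAV-GP73 against AAV-V HFD 1 was called higher, with 1.96% of all genes. Both carboxylesterases called higher, Ces1d and Ces2a, had passed the filter only through AAV-GP73, and nothing is read from these counts. The first 2 comparisons share the AAV-V arrays. Of all calls, 63.1% and 57.7% were higher in these 2 comparisons, a split that was 90.3% and 94.7% with the percentile of all probes, 98.1% and 98.1% with spike-ins, 67.8% and 69.2% after quantile normalization and 16.2% and 8.05% after normexp. These counts depend on the scaling between arrays. With the 75th percentile taken over all non-control probes, most of which were not well above background, 7 of the 8 were called higher in AAV-GP73 than in AAV-V (Ces2e was not), beside 64.5% of all genes, and Ces1d and Ces3a were called higher in AAV-V HFD, beside 56.8% of all genes. Scaled by the spike-in spots, 7 and 4 were called higher, beside 76.1% and 65.5% of all genes. The median over all genes tested moved with the scaling on the log2 scale, from 0.60 to 1.59 and 2.28 for AAV-GP73 against AAV-V, and from 0.37 to 1.32 and 1.70 for AAV-V HFD against AAV-V. These scalings add 1 constant per array, so that the distance of a gene from this median is the same under each, and other settings can change it. In AAV-GP73 against AAV-V, Ces1d lay between 0.10 and 1.85 above it over all 7 scalings run, and Ces2a between -0.16 and 0.82. Ces3b stayed between 0.08 and 0.16 above it, and Ces1e and Ces2e lay below it under all 7, by up to -0.46 and -0.95. Scaling the arrays with spike-ins raised the least fold change of Ces1d to 4.13 and that of Ces3b to 5.03.

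Less movement was seen between AAV-GP73 and the HFD group. The median of all genes lay between -0.01 and 0.44 over the 7 scalings, and the 8 fold changes were above 0 in each of them. The scalings use the same arrays, and Ces1d, Ces1e, Ces1f and Ces2a passed the filter only through AAV-GP73. Nothing is therefore read from this shared sign, and leaving out 1 array took Ces2e as low as -0.18. Ces2a was called in 5 of the 7, with a log2 difference between 1.84 and 2.47, and not with the authors' log2 values (2.08, adjusted p = 0.0663, limma) or after normexp background correction (0.35, adjusted p = 0.876, limma).

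**Figure D2:**
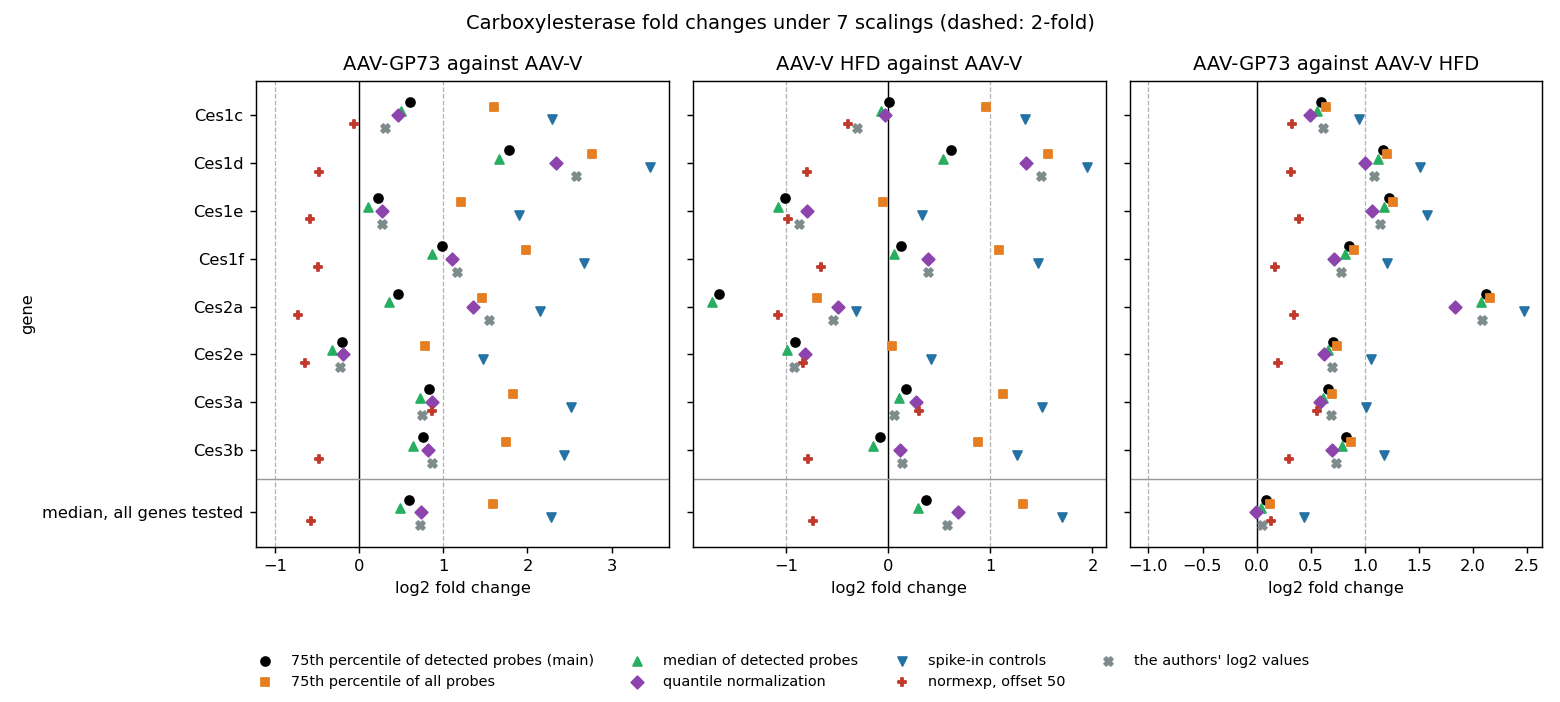
Log2 fold change (x axis) of the 8 tested carboxylesterases under 7 scalings, for the 3 comparisons, with the median of all genes tested in the bottom row. In the comparisons with AAV-V the points of a gene shift together with the median of all genes, while those of AAV-GP73 against AAV-V HFD lie above 0 throughout, and Ces2a lies farthest out in that panel except after normexp.

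For the carboxylesterases, the AAV-V HFD arrays differed more among themselves than those of the other groups. Over all genes they differed more than those of AAV-GP73, but not clearly more than those of AAV-V. Pairs of arrays correlated at 0.950 to 0.968 in AAV-V HFD, 0.951 to 0.959 in AAV-V and 0.972 to 0.987 in AAV-GP73, and between 5.05% and 8.58% of all genes were more than 1 higher on an AAV-V array than on the others of its group, against 2.80% to 5.52% in AAV-V HFD. Against the mean of the other 2 HFD arrays, replicate 2 was higher for all 8 tested carboxylesterases, by between 0.56 (Ces2a) and 2.51 (Ces1f) and with a median of 1.502, where the median over all genes tested was 0.04. Replicate 1 was lower for 7 of the 8, with a median of -0.98, and for replicate 3 the median was -0.55. In AAV-V and AAV-GP73 the medians of the 8 genes lay between -0.26 and 0.31. A larger SD in AAV-V HFD than in AAV-V was also seen for other liver esterases, so it is not particular to the carboxylesterases. These were Aadac (0.92 against 0.35), Pon1 (0.87 against 0.23), Pon3 and Nceh1, while Esd (0.14 against 0.15), Bphl (0.22 against 0.57) and Lcat went the other way. The 8 hepatocyte markers of the 3 HFD arrays differed from their group mean by medians of -0.47, 0.17 and 0.23, and 98 to 151 spots per array carried a quality mark. The part of these values in the spread was not tested. Without AAV-V HFD replicate 2, Ces1e passed the test in AAV-GP73 against AAV-V HFD (1.66, adjusted p = 0.0356), and the difference of Ces1d was 1.88 (adjusted p = 0.0528).

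**Figure D3:**
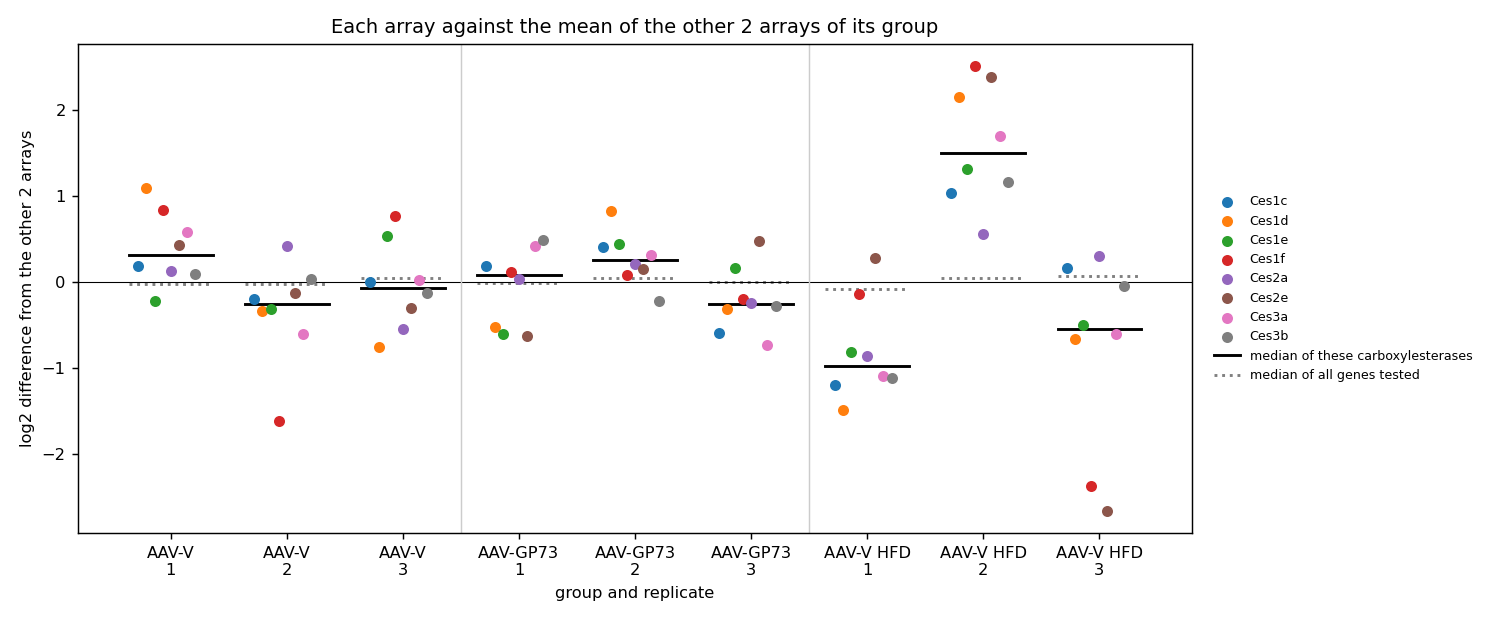
Log2 difference of each array from the mean of the other 2 arrays of its group, for the 8 tested carboxylesterases (points), their median (solid line) and the median of all genes tested (dotted line). All 8 points of AAV-V HFD replicate 2 lie above 0, between 0.56 and 2.51.

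Over the 9 arrays, the genes whose level ran most like that of Ces1c and Ces3a, the carboxylesterases detected throughout, were Proc, Cfb, Apoh, Serpind1 and Apoa2, which encode plasma proteins made by hepatocytes. The mean of their Pearson correlations with the 2 genes lay between 0.92 and 0.94 among 2424 genes detected on all 9 arrays. Ces1c and Ces3a correlated with each other at 0.92. The arrays of a group share their treatment and these are descriptions over 9 points, with no test.

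The remaining carboxylesterase genes on the array gave little signal. Ces1a, Ces1h, Ces2b, Ces2c, Ces2f, Ces2g, Ces2h, Ces4a and Ces5a had 12 probes, which were well above background in 2 of 108 readings, both of the Ces2c probe (AAV-V replicate 1 and AAV-V HFD replicate 2). That probe also lists the transcript of the pseudogene Ces2d-ps. None of these 9 genes was tested.

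Genes around the carboxylesterases were read from lists of related function. In the list for triglyceride hydrolysis, 8 of 16 genes were tested, and 5 of them (Pnpla2, G0s2, Mgll, Plin2 and Plin5) were called higher in AAV-GP73 than in AAV-V and none lower, where 33.2% of all genes were called higher. With the percentile of all probes 7 of the 8 were called higher, beside 64.5% of all genes. The median of the 8 log2 fold changes was 1.87, or 0.71 with genes undetected in 1 group at their bound, against 0.60 for all genes. For AAV-V HFD against AAV-V it was 0.72, or 0.00 with such genes at their bound, against 0.37 for all genes. For AAV-GP73 against AAV-V HFD it was 1.14, against 0.09 for all genes. Mgll, which encodes monoacylglycerol lipase, was at least 3.30-fold higher (adjusted p = 0.00014, limma). Plin2 and Plin5 encode lipid droplet coat proteins, not hydrolases, and Plin2 was at least 9.78-fold higher (adjusted p = 6.25e-05, limma). Pnpla2, the main cytosolic triglyceride lipase, and G0s2, its inhibitor, were undetected in AAV-V and were called with no least fold change above 1. Both passed the filter only through the AAV-GP73 arrays, the group in which they were then called higher, and nothing is read from the count of this list. In AAV-V HFD against AAV-V, Mgll, Plin2 and Plin5 were called higher, beside 24.8% of all genes. Pnpla2, Plin2 and Plin5 were also called higher in AAV-GP73 than in AAV-V HFD, beside 1.96% of all genes. Of the 9 fits that left out 1 array, 0 kept this call for Pnpla2 (adjusted p = 0.0498 with all arrays, limma), whose probe was well above background on 1 of 3 AAV-V HFD arrays, 4 kept it for Plin2 and all 9 for Plin5, which differed by 2.66 ± 0.39 (SE, adjusted p = 0.00642, limma). Aadac, an esterase of the endoplasmic reticulum with lipase activity, differed by 0.20 ± 0.41 (SE, adjusted p = 0.687, limma) between AAV-GP73 and AAV-V.

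Of 12 other liver esterases, a list that also holds Aadac, 7 were tested, and Esd, Nceh1 and Bphl were called higher in AAV-GP73 than in AAV-V, with none lower, a share near the 33.2% of all genes. With the percentile of all probes 7 of 7 were called higher, beside 64.5% of all genes. Esd, which encodes S-formylglutathione hydrolase, rose by 1.92 ± 0.29 (SE, adjusted p = 0.000265, limma) on the log2 scale. Bphl was at least 3.37-fold higher, and Nceh1, a cholesteryl ester hydrolase of the endoplasmic reticulum, at least 1.71-fold. Nceh1 had passed the filter only through the AAV-GP73 arrays, the group in which it was then called higher. In AAV-V HFD against AAV-V, Esd and Bphl were called higher, beside 24.8% of all genes. None of the 7 was called between AAV-GP73 and AAV-V HFD. The medians of the 3 comparisons were 0.99, 0.16 and 0.66, against 0.60, 0.37 and 0.09 for all genes, and those against AAV-V are 0.77 and 0.00 with genes undetected in one group at their bound.

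For VLDL assembly, which draws on the lipid that Ces1d mobilises, 7 of 11 genes were tested and 1 was called, Surf4, a cargo receptor of lipoprotein export. It was higher in the AAV-GP73 group (adjusted p = 0.00289, limma) and in the HFD group (adjusted p = 0.00374, limma) than in AAV-V, beside 33.2% and 24.8% of all genes. In AAV-V its probe was on no array well above background, with no least fold change above 1. With the percentile of all probes 3 and 2 of the 7 genes were called higher, beside 64.5% and 56.8% of all genes. By its brightest probe Apob differed by -0.16 ± 0.25 (SE, adjusted p = 0.599, limma) and Mttp, which loads lipid onto apolipoprotein B, by -0.25 ± 0.64 (SE, adjusted p = 0.739, limma) between AAV-GP73 and AAV-V. A dimmer Apob probe was detected on no AAV-V array and had a mean of 3.07 there and of 4.92 in AAV-GP73. The medians of the list were -0.16, -0.25 and 0.20, against 0.60, 0.37 and 0.09 for all genes. The KDEL receptors and Gusb, the beta-glucuronidase that egasyn binds, were on the array with 4 genes, none of which was tested.

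Of 16 nuclear receptors and liver transcription factors, 9 were tested. In AAV-GP73 against AAV-V 7 were called higher (Ppara, Nr1h4, Nr1h3, Rxra, Nr3c1, Hnf4a and Cebpa), and in AAV-V HFD against AAV-V the same genes without Nr3c1, beside 33.2% and 24.8% of all genes. With the percentile of all probes 7 were called higher in each, beside 64.5% and 56.8% of all genes. In AAV-V, no array detected the probes used for Ppara, Nr1h4, Nr1h3, Nr3c1 and Cebpa, so their AAV-V levels are bounds. The least fold change in AAV-GP73 was 2.16 for Ppara, 2.01 for Nr1h3 and 1.29 for Nr3c1. Cebpa had none above 1 in either comparison. A second Nr1h4 probe, detected on the 3 AAV-V arrays, ran the other way, with a mean of 4.63 in AAV-V against 2.45 in AAV-GP73 and 3.09 with the HFD, so that no direction is given for Nr1h4. Leaving out 1 array kept the call of Ppara in AAV-V HFD in 5 of 9 fits, and those of Nr3c1 and Cebpa in AAV-GP73 in 7 and 6. Nr3c1 and Cebpa had passed the filter only through the AAV-GP73 arrays. None was called lower in either, and none was called between AAV-GP73 and AAV-V HFD. Hnf4a, a regulator of many hepatocyte genes, differed by 2.46 ± 0.32 (SE, adjusted p = 0.000143, limma) in AAV-GP73 and Rxra, the partner of many nuclear receptors, by 1.62 ± 0.27 (SE, adjusted p = 0.000386, limma). Nr1i3, the receptor CAR, which induces several drug-metabolising esterases, differed by -0.93 ± 0.40 (SE, adjusted p = 0.0619, limma) by its brighter probe, while another probe had a mean of 3.61 in AAV-V and 5.03 in AAV-GP73. The medians were 1.53, 1.40 and 0.09, those against AAV-V being 1.005 and 0.85 with genes undetected in one group at their bound.

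**Figure D4:**
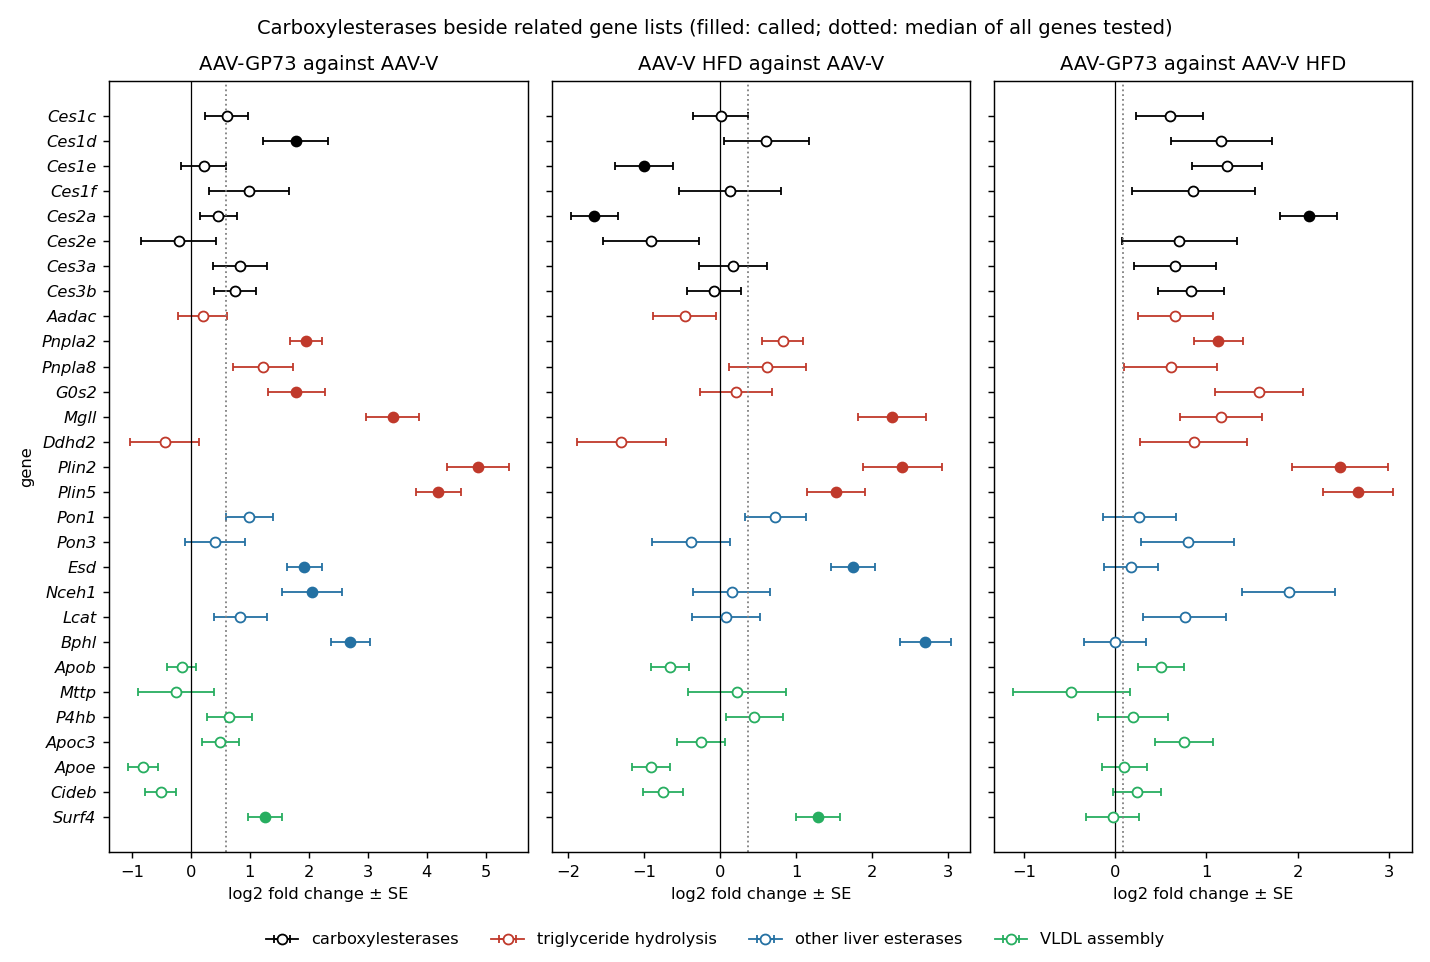
Log2 fold change with its SE (x axis) for the 8 tested carboxylesterases and the tested genes of 3 related lists, in the 3 comparisons. Filled points were called and the dotted line is the median of all genes tested. Values of genes undetected in one of the groups are fitted and not measured sizes, and Plin2, Plin5 and Mgll lie farthest above the carboxylesterases in AAV-GP73 against AAV-V.

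Markers of cell types were read as summed levels per array. Of the 4 sums with ranges given here, the erythroid sum alone did not overlap between AAV-GP73 and AAV-V. The hepatocyte and stellate sums of AAV-V HFD lay below those of AAV-V. The summed level of 5 erythroid markers lay between 375 and 917 in AAV-V, 3313 and 16632 in AAV-GP73 and 615 and 1083 in AAV-V HFD, and that of 8 hepatocyte markers between 16455 and 25805, 16139 and 21857, and 10197 and 16111. Macrophage markers summed to between 98.5 and 120, 106 and 159, and 117 and 210, and stellate markers to between 148 and 267, 161 and 194, and 80.4 and 126. In AAV-GP73 against AAV-V the stellate marker Des was called lower (-2.14) and Dcn higher (1.20). Of the 8 hepatocyte markers, Cps1 was called lower (-1.59), Tat was called higher (2.25) and 6 were not called. The macrophage marker Clec4f (1.00) and the endothelial marker Clec4g (2.59) were called higher, and both were undetected in AAV-V. The other 3 tested macrophage markers were not called, and Clec4g passed the filter only through AAV-GP73. The erythroid marker Alas2 was not called there (0.75, adjusted p = 0.331, limma), while Hba-a1 was (3.85). Of the endothelial, cholangiocyte, lymphocyte and adipocyte markers, none was well above background on all 9 arrays, and all 4 lymphocyte markers and Adipoq, Plin1 and Lep were so on no array. The part of these cells in the values of the carboxylesterases was not tested.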

How the data were processed

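Liver RNA of 9 mouse samples was labelled with Cy3 and read on one-colour Agilent arrays. As deposited, the intensity is the processed signal of Feature Extraction 12.0.3.1 per the file headers (10.7 in the submitters' processing notes, which also name limma), corrected for background and spatial trend within an array and not scaled between arrays. A table of log2 values deposited by the authors holds the same 56605 probe names, with a normalization that is not given in the sources used here. Each column has a median of 0.80. It served as an alternative.

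The scaling, the limma fit over all 3 groups (limma 3.58.1, R 4.3.3) and the calling rule are given with the results. The brightest probe stood for each gene name, and it was tested if some group had it well above background on each of its arrays. Spots with a quality mark were left out and 0 spots were saturated. Of the 10 gene names and their accessions, 10 matched RefSeq symbols. The genes, the lists and the tests were chosen with earlier results of these data known. Named were the carboxylesterases, called genes and selected others of the lists, and the 5 genes most like Ces1c and Ces3a over the 9 arrays. Correlations of residuals between equal replicate numbers lay between -0.12 and 0.17, and the numbers were not treated as pairs. Steps were tested on simulated data. Alternatives were other scalings and backgrounds, other filters and probe rules, the methods' t-test, other limma settings, the replicate block and leaving out each array. The number of arrays limits the precision.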

Additional observations from a re-analysis of the deposited data

How the results depend on the processing

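Among the fold changes of single carboxylesterases under the alternatives, 505 kept their direction and side of the threshold, 22 newly passed it, 23 no longer passed it and 32 changed sign. The causes of the changes below were not tested, except that detection on all 9 arrays left Ces1c and Ces3a alone to test. In AAV-GP73 against AAV-V, where 1 carboxylesterase was called, 7 were called with the percentile of all probes and with spike-ins, 2 after quantile normalization and with the authors' log2 values, and 0 after normexp and with detection on all 9 arrays. Of all 5761 genes, 3717 and 4385 were called higher with the percentile of all probes and with spike-ins. The number was 2257 after quantile normalization, 2200 with the authors' values and 138 after normexp. Leaving out 1 array gave 0 to 1. In AAV-V HFD against AAV-V, where 2 were called lower, 2 were called higher with the percentile of all probes and 4 with spike-ins, beside 56.8% and 65.5% of all genes. Of the carboxylesterases, 1 was called lower after normexp, with only the 2 groups in the fit and by the methods' t-test (unadjusted and adjusted). In this order, 822, 1016, 971 and 754 of all 5761 genes were called lower. No carboxylesterase was called after quantile normalization, with the authors' values and with detection on all 9 arrays. Leaving out 1 array gave 1 to 3. In AAV-GP73 against AAV-V HFD, where 1 was called, 2 were called higher with spike-ins, beside 288 of all 5761 genes. None was called after normexp, with the authors' values, with detection on all 9 arrays and by the adjusted t-test. Leaving out 1 array gave 1 to 2. With the replicate block the counts were 1, 2 and 1, and the block changed no call among these counts.

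Log2 fold changes that changed sign in AAV-GP73 against AAV-V were, after normexp, those of Ces1c (-0.062), Ces1d (-0.48), Ces1e (-0.59), Ces1f (-0.48), Ces2a (-0.73) and Ces3b (-0.48), and for Ces2e those with the percentile of all probes (0.79) and spike-ins (1.48). Leaving out 1 array moved Ces2e from -0.37 to 0.000953. In AAV-V HFD against AAV-V, Ces1c changed sign with the median of detected probes (-0.0639), quantile normalization (-0.0267), normexp (-0.39) and the authors' values (-0.31), Ces1d after normexp (-0.80), Ces1f after normexp (-0.66) and Ces1e with spike-ins (0.33). Ces2e did so with the percentile of all probes (0.0422) and spike-ins (0.42), and Ces3b with these (0.88 and 1.26), quantile normalization (0.12) and the authors' values (0.13). Leaving out 1 array gave ranges of -0.34 to 0.41 (Ces1c), -0.10 to 1.10 (Ces1d), -0.71 to 0.92 (Ces1f), -0.39 to 0.54 (Ces3a), -0.46 to 0.29 (Ces3b), and of -0.18 to 1.496 for Ces2e in AAV-GP73 against AAV-V HFD. The number of arrays and the few probes above background limit what could be tested.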
